A study of Sus scrofa with 10 samples.

Results

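Cadherins and protocadherins were taken as all genes of the count files whose symbol starts with CDH or PCDH, followed by a digit or by A, B or G and a digit. The rule gave 40 members among 22452 genes, of which 37 were named in the files and 3 (CDH6, PCDH10 and PCDH20) by a table of gene names. By class of molecule they were 5 classical type I cadherins, 13 type II cadherins, 3 atypical cadherins, 10 protocadherins outside the gene clusters and 9 clustered protocadherins of the alpha and beta kind. In all, 36 members had at least 1 UMI (a unique molecular identifier, read as 1 captured transcript). CDH22, PCDHA4, PCDHA11 and PCDHA13 had none, and PCDHB1, CDH16, PCDHB6 and PCDHB7 had 1, 4, 12 and 14 UMIs. A further 14 clustered symbols of the kinds PCDHGA, PCDHGB, PCDHGC and PCDHAC fell outside the rule, and PCDH7, CDH23, CDH26 and PCDH11X were not analysed here.

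The cells came from the medial entorhinal cortex of pigs, a cortical area that links the neocortex with the hippocampus. Whole cells dissociated with papain from fresh tissue gave 1 library from embryonic day (E) 50, 3 from E60, 3 from E70 and 1 called adult, and nuclei sorted from frozen tissue gave 1 library of E70 (E70_nc) and 1 adult library (Adult_nc). The fetuses were crosses of Danish Landrace or Yorkshire with Duroc, of both sexes. The study describes no genetic change or experimental treatment for any group. Its methods give the adult brains as those of sows killed for another study. The tissue was dissected by eye, and per the labels 3 brains were pooled in E50_1, 2 brains each in E60_3 and E70_1, and 1 brain was used in every other library. The study has the pooled E70 brains in another library than the labels do, and it describes the adult libraries both by a postnatal day and as an adult sow, so that neither point is settled here.

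Classical cadherins are calcium-dependent adhesion molecules that bind the same cadherin on a neighbouring cell and hold the actin skeleton through catenins at the tail. Protocadherins outside the gene clusters adhere more weakly, and those of the delta-2 kind recruit the WAVE complex that branches actin. Clustered protocadherins are chosen at random from tandem arrays and give single neurons a surface identity. In the developing brain these families are known for the sorting of neurons into layers and nuclei, for the matching of axons and synapses, and for the junctions of vessels.

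The libraries held 493 to 8171 cells and 2336865 to 55755512 UMIs, with a median of 690 UMIs per cell in Adult_nc, 2616 in E70_nc and 4251 to 9403 in whole cells. Of 27777 distinct barcodes, 449 occurred in more than 1 library. E60_1 and E60_2 stood apart from their labels. They held 1 excitatory-like cell each and 0 interneuron-like cells, against 781 and 248 in E60_3, and the 9 excitatory markers summed to 35.2, 15.5 and 456 CPM (UMIs of a gene as a share of all UMIs, scaled to a sum of 1000000) over all cells of E60_1, E60_2 and E60_3. The adult whole cells, with 42.1 CPM, had no excitatory-like cells either. Cells with the markers of cerebellar granule and Purkinje neurons came mostly from E50_1 and E60_1, and 862 of 889 choroid plexus and ependymal-like cells came from E60_1. Levels are therefore given by library, or with their range over libraries, for the members the results turn on, and the other levels are sums over all cells of a class. The members took no part in making the clusters.

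Across the 17 named cell classes, 20 of 28 members with at least 10 CPM and 50 UMIs in a class reached 4 times the median CPM of the other classes in some class, against 37.5% of all genes measured in this way. Such members were found in vessel-wall classes, the oligodendrocyte lineage and neuron classes, and several were shared between classes. CDH9 reached this limit in excitatory-like, interneuron-like, granule-like, Purkinje-like and photoreceptor-like cells. CDH7 did so in granule-like, LHX9 and TCF7L2 neuron-like and photoreceptor-like cells, and CDH6 in endothelial-like and mural-like cells. CPM from 3' counts is not a level per length, so members are compared between cells and not with each other. The number of members was 22 when libraries were weighted equally, 20 at a coarser clustering, 18 with classes made in each library alone and 20 without called doublets.

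**Figure D1:**
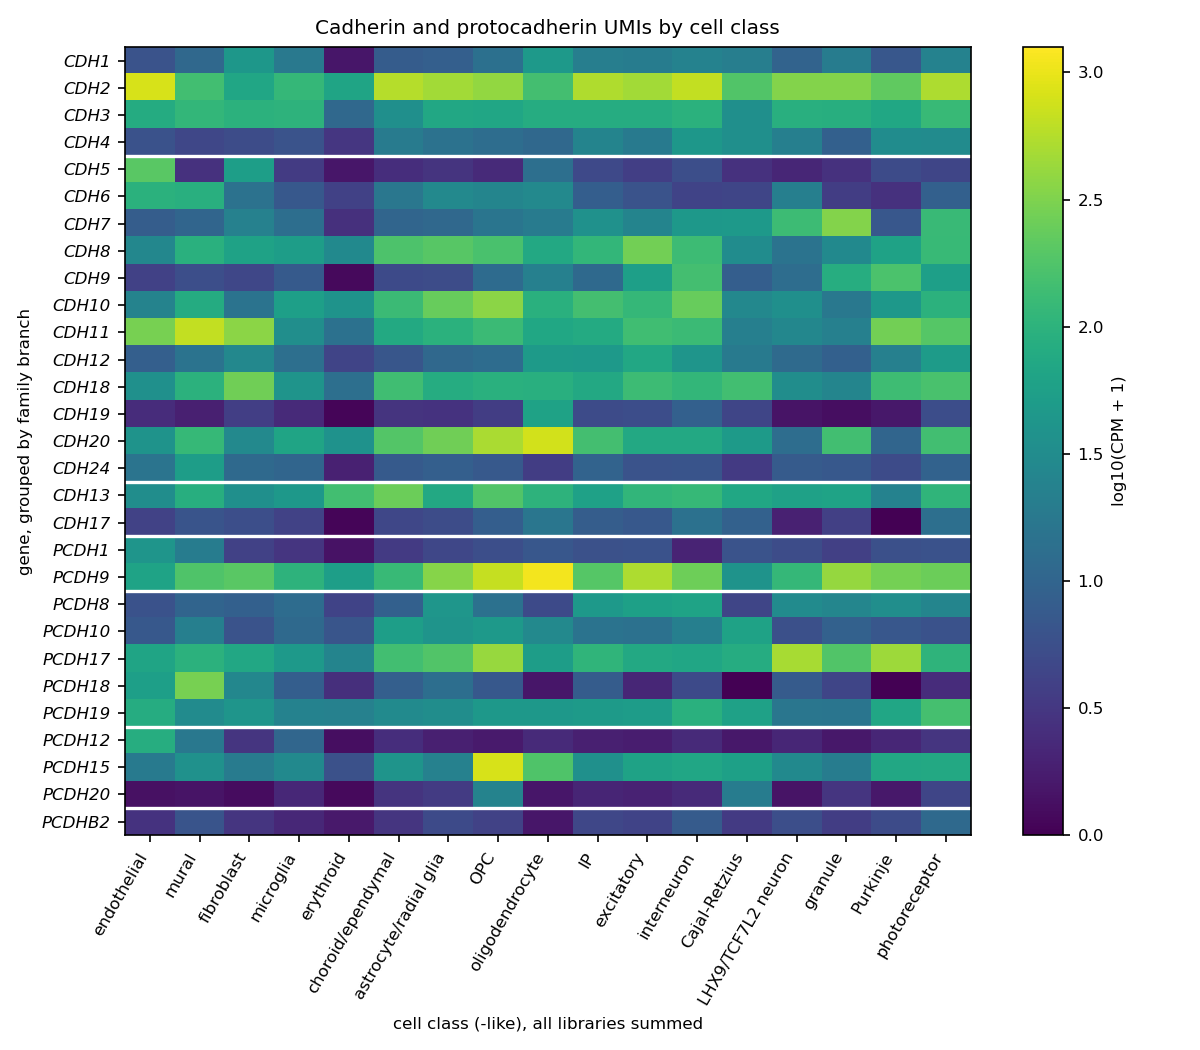
Heat map of log10(CPM + 1) for the 29 members that reach 10 CPM in a class (rows) across the 17 named cell classes (columns), each value summed over all cells of the class. CDH5 and PCDH12 are highest in the endothelial-like column, PCDH18 in the mural-like column, PCDH15 in the OPC-like column and CDH19 in the oligodendrocyte-like column. CDH2 is high in nearly every column.

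Among type I cadherins, CDH2 (N-cadherin, the main adhesion molecule of neural tissue) was found in every class, from 62.8 CPM in erythroid-like cells to 820 CPM in endothelial-like and 661 CPM in interneuron-like cells. CDH4 (R-cadherin, first described in retina) was highest in interneuron-like cells at 43.2 CPM, with a range of 21.3 to 63.0 CPM over 7 libraries. CDH1 (E-cadherin of epithelia) reached 45.3 CPM in oligodendrocyte-like (2.75 to 74.0 CPM over 3 libraries) and 42.3 CPM in fibroblast-like cells. CDH3 (P-cadherin) had nearly flat levels, with 121 CPM in photoreceptor-like (22.6 to 173 CPM over 3 libraries), 112 CPM in mural-like and 99.8 CPM in microglia-like cells and 10.1 CPM in erythroid-like cells. CDH15 (M-cadherin of muscle) stayed at or below 1.50 CPM in every class.

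Among type II cadherins, CDH5 (VE-cadherin, the core of endothelial adherens junctions) was highest in endothelial-like cells, with 206 CPM in E50_1, 165, 212 and 303 CPM in the 3 E60 libraries, 302 CPM in E70_3 and 164 CPM in the adult whole cells. The next class was fibroblast-like at 53.8 CPM, and mural-like cells had 1.79 CPM. All 6 endothelial-like values lay above the highest of the 5 fibroblast-like values, 82.1 CPM. A UMI of CDH5 was found in 71.0% of endothelial-like cells (median of 9451 UMIs) and, as the background in cells that should lack it, in 1.35% of the microglia-like ones, whose median was 5097.5 UMIs, and at 1000 UMIs per cell the shares were 15.5% and 0.219%.

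CDH6 (K-cadherin) was shared by endothelial-like and mural-like cells at 94.6 and 89.5 CPM, which do not differ beyond the spread of their libraries, 8.18 to 113 CPM and 59.3 to 111 CPM. CDH11 (a mesenchymal cadherin, first found in osteoblasts) was highest in mural-like cells, with 676 CPM in E50_1, 839 and 650 CPM in E60_1 and E60_2 and 205 CPM in the adult. Fibroblast-like cells followed at 362 CPM and endothelial-like cells at 289 CPM. CDH24 was highest in mural-like cells too, at 52.8 CPM, with 42.8 to 81.8 CPM over 4 libraries, and CDH18 was highest in fibroblast-like cells at 267 CPM, with 153 to 765 CPM over 5 libraries.

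CDH20 and CDH19, which flank CDH7 on chromosome 1, were highest in oligodendrocyte-like cells. CDH20 had 950 CPM in the oligodendrocyte-like cells of E60_1, 481 CPM in Adult_1 and 1080 CPM in Adult_nc, with 509 CPM in oligodendrocyte precursor (OPC)-like and 267 CPM in astrocyte and radial glia-like cells. CDH19, known from Schwann cell precursors, had 51.0 and 95.0 CPM in the oligodendrocyte-like cells of Adult_1 and Adult_nc. In the 81 oligodendrocyte-like cells of E60_1 it had 0 UMIs, where 3 counts would have made 8.26 CPM. The fetal and adult libraries of this class therefore lay apart for CDH19 and overlapped for CDH20.

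CDH7 was highest in granule-like cells at 330 CPM, with 413 CPM in E50_1, 240 CPM in E60_1 and 14.1 CPM (2 UMIs) in E60_2. The LHX9 and TCF7L2 neuron-like cells of E50 followed at 131 CPM and the photoreceptor-like cells at 124 CPM. Within the granule-like class the cluster led by NEUROD1 and ZIC4 had 530 CPM of CDH7 and the cycling cluster 131 CPM. A UMI of CDH7 was found in 59.6% of granule-like and 5.13% of microglia-like cells, and in 20.8% and 1.14% of them at 1000 UMIs per cell.

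CDH9, which is known for target choice at synapses of the retina and hippocampus, was highest in GABAergic classes. It had 164 CPM in Purkinje-like cells (185 CPM in E50_1 and 78.2 CPM in E60_1) and 150 CPM in interneuron-like cells, and granule-like cells followed at 84.5 CPM. In interneuron-like cells it had 36.3 CPM in E50_1, 54.4 CPM in E60_3, 98.6, 95.7 and 90.1 CPM in the 3 E70 whole cell libraries, 869 CPM in the E70 nuclei and 193 CPM in the adult nuclei. The order of these classes does not hold beyond the spread of their libraries. In excitatory-like cells CDH9 differed by cluster, from 8.94 and 13.4 CPM in clusters 0 and 14 to 125 CPM in cluster 21, which expressed CRYM and FEZF2, and 324 CPM in cluster 27, where it was a leading gene and most cells were E70 nuclei.

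CDH8 was highest in excitatory-like cells, with 107 CPM in E50_1, 270 CPM in E60_3, 249, 418 and 364 CPM in the E70 whole cells, 892 CPM in the E70 nuclei and 408 CPM in the adult nuclei. Astrocyte and radial glia-like cells followed at 197 CPM, where the libraries ran from 48.1 CPM in E60_2 to 363 CPM in E60_1 among whole cells, so that the ranges of both classes overlap. CDH12 (a brain cadherin) had 71.3 CPM in excitatory-like cells, with 51.1 to 143 CPM over 7 libraries, 49.6 CPM in photoreceptor-like and 46.9 CPM in IP-like cells. CDH10 was highest in OPC-like cells at 365 CPM, with 259 to 1070 CPM over 6 libraries, and was found at 241 CPM both in interneuron-like and in astrocyte and radial glia-like cells.

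Within the interneuron-like class the cluster with VIP and CRH had 297 CPM of CDH10, 846 CPM of CDH2 and 61.8 CPM of CDH4. The cluster with CORT and NXPH1 had 161, 399 and 16.9 CPM of these genes. CDH11 went the other way, with 97.3 CPM in the first and 177 CPM in the second. Nuclei were unevenly split, as the first cluster held 135 of the 181 E70 nuclei and 46 of the 52 adult nuclei of the class. CDH10 and CDH11 were both higher in the E70 nuclei of this class, and CDH2 was so over all cells. The part of the nuclei in these cluster differences was not tested. Among IP-like cells the cycling cluster had 12.6 CPM of CDH12 and the other cluster 59.8 CPM.

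Among atypical cadherins, CDH13 (T-cadherin, a membrane-anchored receptor for adiponectin with no cytoplasmic tail) was highest in choroid plexus and ependymal-like cells at 255 CPM, nearly all of them from E60_1, and OPC-like cells followed at 179 CPM. CDH17 (LI-cadherin of liver and intestine) reached 15.5 CPM in oligodendrocyte-like (8.26 to 26.8 CPM over 3 libraries) and 13.3 CPM in interneuron-like cells. CDH16 of the kidney stayed below 1 CPM.

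Among delta-1 protocadherins, PCDH9 was highest in oligodendrocyte-like cells, with 251 CPM in E60_1, 735 CPM in Adult_1 and 1950 CPM in Adult_nc, and had 670 CPM in OPC-like and 525 CPM in excitatory-like cells. The spread of these libraries covers the difference between the classes. PCDH1 was highest in endothelial-like cells, with 49.9 CPM in E50_1, 42.4, 37.8 and 51.0 CPM in the E60 libraries, 40.7 CPM in E70_3 and 15.1 CPM in the adult. Mural-like cells had 19.2 CPM of PCDH1.

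Among delta-2 protocadherins, PCDH18 was highest in mural-like cells, with 274 CPM in E50_1, 380 and 354 CPM in E60_1 and E60_2 and 5.84 CPM (2 UMIs) in the adult. Endothelial-like cells followed at 54.6 CPM, most of it in the cluster that also carried the mural gene RGS5, with 136 CPM, while the other 2 endothelial-like clusters had 5.51 and 8.65 CPM. A UMI of PCDH18 was found in 68.8% of mural-like cells (median of 5873 UMIs) and 3.51% of microglia-like cells, and in 26.9% and 0.569% of them at 1000 UMIs per cell. CDH5, by contrast, was found in all 3 endothelial-like clusters at 108 to 219 CPM.

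PCDH17, known from corticobasal ganglia circuits, was highest in neurons outside the neocortical classes and in OPC-like cells. It had 493 CPM in LHX9 and TCF7L2 neuron-like cells, 447 CPM in Purkinje-like cells (290 CPM in E50_1 and 1100 CPM in E60_1) and 419 CPM in OPC-like cells (211 to 625 CPM over 6 libraries). PCDH8 (arcadlin, which is induced by neuronal activity) had 62.2 CPM in interneuron-like (18.1 to 181 CPM over 7 libraries), 56.4 CPM in excitatory-like and 46.8 CPM in IP-like cells. PCDH10 had 59.3 CPM in Cajal-Retzius-like and 54.0 CPM in choroid plexus and ependymal-like cells, and PCDH19, the X-linked gene of an epilepsy syndrome, had 153 CPM in photoreceptor-like (43.7 to 231 CPM over 3 libraries) and 92.0 CPM in interneuron-like cells.

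Among the remaining protocadherins outside the clusters, PCDH15 (a tip link protein of hair cells) was highest in OPC-like cells, with 792 CPM in E50_1, 899 and 681 CPM in E60_1 and E60_2, 507 CPM in E70_3, 1960 CPM in the E70 nuclei and 1370 CPM in the adult nuclei. The next class, oligodendrocyte-like, had 174 CPM. A UMI of PCDH15 was found in 87.7% of OPC-like cells (median of 4363 UMIs) and 10.6% of microglia-like cells, and in 52.4% and 2.36% of them at 1000 UMIs per cell. PCDH15 was a leading gene of all 3 OPC-like clusters, although it was not used to make them.

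PCDH20 had 23.3 CPM in OPC-like cells, with 16.0 to 46.6 CPM over 6 libraries. PCDH12 (VE-cadherin-2, an endothelial protocadherin) was highest in endothelial-like cells, with 90.2 CPM in E50_1, 87.8, 94.9 and 79.4 CPM in the E60 libraries, 69.7 CPM in E70_3 and 18.3 CPM in the adult. Mural-like cells had 16.6 CPM of PCDH12. The 5 fetal endothelial-like libraries lay close together and the adult one well below them.

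Clustered protocadherins were sparse. PCDHA1 reached 9.73 CPM in interneuron-like cells (0 to 27.5 CPM over 7 libraries), PCDHB2 10.4 CPM and PCDHB15 6.45 CPM in photoreceptor-like cells, and no other clustered member passed 1 CPM in any class. Reads from copies that are nearly alike, or that share their last exons, could be split or lost in the counting, so these levels are uncertain.

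The promoters of 3 members, PCDH12 (highest in endothelial-like cells), PCDH15 (OPC-like) and CDH7 (granule-like), are shown to place those class levels on the genome. Each is the 250 bases before the RefSeq gene start on Sscrofa11.1, written 5′ to 3′ on the strand of the gene, with GGAA (the core of ETS factor motifs, which are known from endothelial genes) or its reverse complement TTCC in capitals.
PCDH12, chr2:143565029-143565278, minus strand: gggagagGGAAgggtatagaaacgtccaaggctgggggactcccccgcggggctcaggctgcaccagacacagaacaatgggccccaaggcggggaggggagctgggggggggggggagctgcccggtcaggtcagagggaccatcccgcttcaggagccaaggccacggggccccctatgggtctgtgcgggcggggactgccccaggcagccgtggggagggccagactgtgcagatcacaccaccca
PCDH15, chr14:95529918-95530167, plus strand: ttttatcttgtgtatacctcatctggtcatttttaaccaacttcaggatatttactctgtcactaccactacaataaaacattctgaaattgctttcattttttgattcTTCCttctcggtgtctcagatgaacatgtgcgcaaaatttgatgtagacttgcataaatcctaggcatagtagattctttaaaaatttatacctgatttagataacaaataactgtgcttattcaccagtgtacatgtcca
CDH7, chr1:156436376-156436625, minus strand: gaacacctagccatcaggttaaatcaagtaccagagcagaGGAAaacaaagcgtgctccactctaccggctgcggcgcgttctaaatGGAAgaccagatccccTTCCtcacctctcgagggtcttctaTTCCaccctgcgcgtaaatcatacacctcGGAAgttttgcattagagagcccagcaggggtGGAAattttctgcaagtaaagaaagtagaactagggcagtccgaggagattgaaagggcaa
GGAA was found in 1, 1 and 6 places in these windows. It was present in 92.7% of all 19531 promoters of that length and in 30 of the 32 members with a RefSeq entry. The 6-base motif CANNTG was present in 61.9% of all promoters and in 18 of the 32, and TATAAA in 9.76% and in 5. The median number of CG pairs in a window was 12.0 over all promoters and 10.0 over the members, from 0 in CDH9 to 30 in CDH2 and 32 in CDH24. A match is a description of letters only.

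Some members lie next to each other. CDH18, CDH12, CDH10, CDH9 and CDH6 follow each other on chromosome 16 and were highest in fibroblast-like, excitatory-like, OPC-like, Purkinje-like and endothelial-like cells. CDH1 and CDH3, 35.0 kb apart on chromosome 6, were highest in oligodendrocyte-like and photoreceptor-like cells. For CDH6, CDH9, CDH1 and CDH3 the first class exceeded the second only by 1.06, 1.09, 1.07 and 1.09 times, so that their order of classes is not firm. PCDH1 and PCDH12, 49.6 kb apart on chromosome 2, were both highest in endothelial-like cells.

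**Figure D2:**
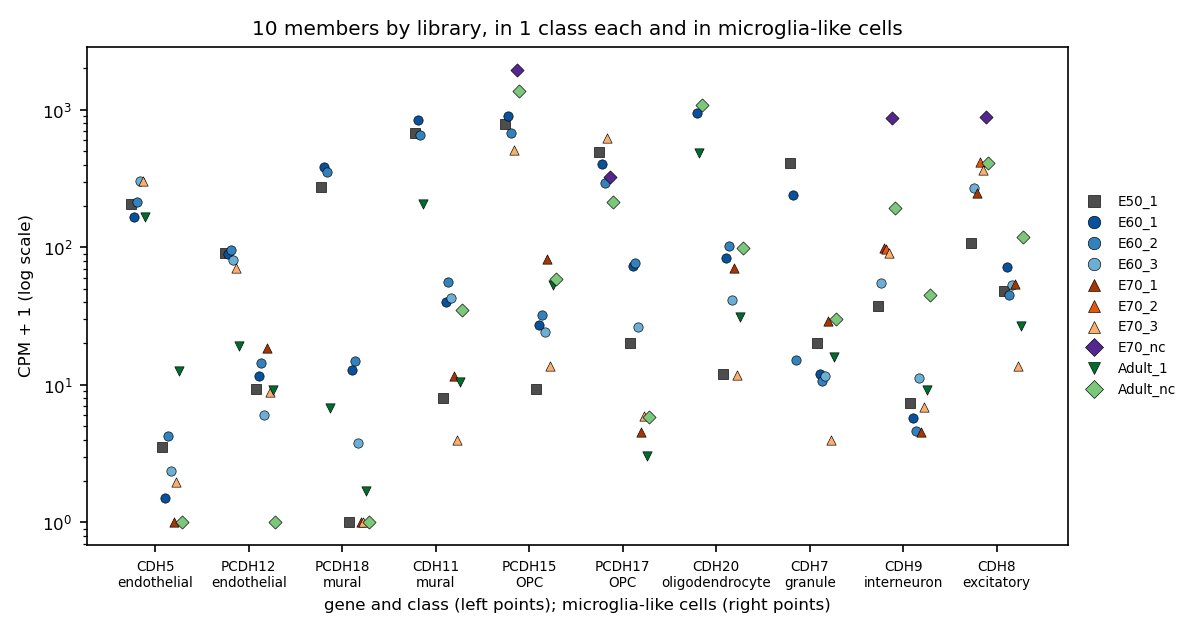
CPM + 1 on a log axis of 10 members in the class named under each gene, 1 point per library with at least 20 cells of the class, with the same gene in microglia-like cells to the right of it. All class points lie above all microglia-like points for CDH5, PCDH12 and PCDH15, and the adult point is the lowest of its class for PCDH12 (18.3 CPM) and PCDH18 (5.84 CPM).

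Counted per cell at 1000 UMIs, OPC-like cells held the most members, with a mean of 3.23 per cell, against 2.35 in oligodendrocyte-like, 2.10 in interneuron-like, 2.01 in astrocyte and radial glia-like and 2.00 in excitatory-like cells. Microglia-like cells held 0.636 and erythroid-like cells 0.366. Of the oligodendrocyte-like cells only 629 of 2028 had 1000 UMIs. The members summed to 4050 CPM in OPC-like, 3110 CPM in oligodendrocyte-like, 2500 CPM in interneuron-like, 821 CPM in microglia-like and 476 CPM in erythroid-like cells. Adult nuclei made up 1725 of the 2028 oligodendrocyte-like cells. Of the 951 OPC-like cells, 191 were adult nuclei and 25 were E70 nuclei. The part of the nuclei in these orders was not tested.

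Part of the signal in microglia-like cells was unevenly spread. Clusters 20 and 36 had 255 and 220 CPM of PCDH9 and 287 and 248 CPM of CDH2, while clusters 12 and 39 had 5.07 and 11.3 CPM of PCDH9 and 7.06 and 10.7 CPM of CDH2. In cluster 20, 538 of 544 cells came from E60_1 and E60_2. The source of these transcripts was not tested.

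How much of the spread of a member followed the class and how much the library was read from 68 sums of a class in a library. For the median of 12710 genes the class, with the library given, took 63.0% of the variance of log2 CPM and the library, with the class given, 14.2%. CDH5, PCDH12, CDH11 and CDH2 followed the class, with 78.6%, 79.6%, 78.4% and 78.1%. PCDH19 followed the library, which took 59.1% of its variance, more than in 97.0% of genes, and CDH13, CDH3, CDH18 and PCDH8 had library shares of 42.7%, 35.8%, 34.9% and 30.9%. These shares are a description of the sums at hand.

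In excitatory-like cells PCDH19 had 191 and 286 CPM in E70_1 and E70_2 and 35.7 CPM in E70_3. In IP-like cells the values were 204, 267 and 29.6 CPM, in interneuron-like cells 167, 292 and 40.4 CPM, and in cluster 8, whose cells carried no class name, 185, 247 and 29.3 CPM. In microglia-like cells it had 215 CPM in E70_1 and 6.87 CPM in E70_3. The same libraries were thus high in neurons, in progenitors and in microglia-like cells.

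By a rule added after the values were seen (both E70_1 and E70_2 at least 2-fold on the same side of E70_3, with no test), CDH1, CDH13, CDH15, CDH18, CDH19, CDH3, PCDH19 and PCDHA1 were higher over all cells, 8 of 32 members against 14.7% of genes, and PCDH10, PCDH17 and PCDH8 were lower, 3 of 32 against 4.99%. The counts within classes were 8 higher (17.3% of genes) and 3 lower (6.26%) of 28 members in excitatory-like cells, 6 (13.9%) and 4 (5.90%) of 28 in IP-like cells, 7 (14.8%) and 2 (4.97%) of 25 in interneuron-like cells and 8 (15.6%) and 1 (5.89%) of 26 in cluster 8. In excitatory-like cells CDH3 had 209, 232 and 36.9 CPM, CDH18 238, 221 and 82.4 CPM and PCDHA1 26.9, 21.0 and 4.25 CPM in E70_1, E70_2 and E70_3. In erythroid-like cells CDH13 had 1850 and 2400 CPM in E70_1 and E70_2 and 10.3 CPM in E70_3. In this class 3 of 3 members were higher and 0 lower, against 65.1% and 1.99% of genes. CDH18 had 65.4, 59.6 and 3.44 CPM there. A member could reach the UMI minimum of the rule through E70_1 and E70_2, where it was high. The count in this class is therefore no evidence of a broad rise of the members. In the excitatory-like cells of E70_1, E70_2 and E70_3 the endothelial markers summed to 210, 212 and 62.3 CPM. The mural markers summed to 130, 111 and 35.1 CPM and the microglia markers to 102, 70.1 and 24.8 CPM. Their part in the result was not tested.

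**Figure D3:**
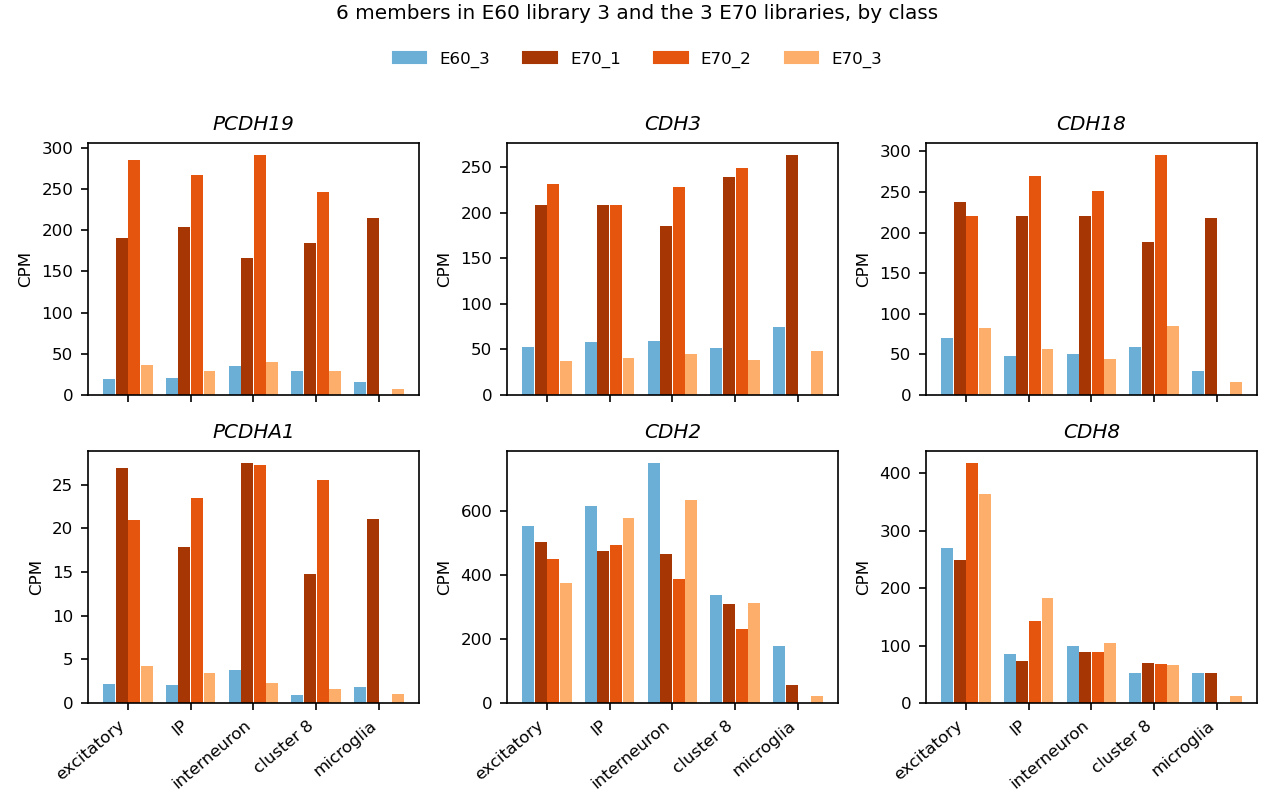
CPM (linear axis from 0) of PCDH19, CDH3, CDH18, PCDHA1, CDH2 and CDH8 in E60_3 and the 3 E70 whole cell libraries, with 1 bar per library in excitatory-like, IP-like, interneuron-like, cluster 8 and microglia-like cells and no bar where a library had fewer than 20 cells. The bars of E70_1 and E70_2 stand well above those of E70_3 for PCDH19 and CDH3 in every group of cells where they are drawn, while CDH2 in excitatory-like cells runs only from 375 to 503 CPM in the E70 libraries.

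Development from E60 to E70 was the only comparison with replicate libraries, 3 against 3 of whole cells. Over all cells of a library CDH5, PCDH12 and PCDH18 had lower values and PCDHA1 and CDH17 higher values at E70, but edgeR's quasi-likelihood test called 0 of 32 members and 0 of 16743 genes after Benjamini-Hochberg adjustment (0% called). In simulated counts with the spread of these libraries, 200 genes were changed by a log2 of 1 or 2. The test called almost none of them, and changes in more genes were not simulated. A count of 0, here and within classes, therefore does not show that levels were alike. The lowest adjusted p of any gene was 0.122. Unadjusted p-values under 0.05 were found for 14 members, 8 of them higher and 6 lower, against 29.4% of genes, and the median log2 difference was 0.30 over the members and -0.06 over all genes.

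CDH5 had 31.1, 89.5 and 30.6 CPM in E60 libraries 1 to 3 and 16.0, 13.2 and 20.1 CPM in E70 libraries 1 to 3, a log2 difference of -1.88 ± 0.54 (SE, edgeR, adjusted p = 0.122). PCDH12 had 18.6, 41.9 and 7.38 CPM and then 7.13, 4.60 and 4.95 CPM (-2.33 ± 0.68, edgeR, adjusted p = 0.122). PCDH18 had 30.7, 30.2 and 11.8 CPM and then 8.39, 5.47 and 7.86 CPM (-2.0 ± 0.49, edgeR, adjusted p = 0.122). The E60 and E70 values of these vessel genes did not overlap. Endothelial-like cells numbered 765, 810 and 72 of the 8171, 3479 and 2696 cells of the E60 libraries. In the E70 libraries they numbered 10, 13 and 65 of 493, 617 and 3120 cells. Fewer vessel cells and less of these transcripts per cell cannot be told apart in the sums. E70_3 alone of the E70 libraries had at least 20 endothelial-like cells. Within this class it lay inside the E60 range for CDH5 and below it for PCDH12, which was not tested.

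PCDHA1 had 1.22, 1.69 and 1.92 CPM at E60 and 20.9, 20.7 and 2.87 CPM at E70 (2.99 ± 0.73, edgeR, adjusted p = 0.122). CDH17 had 2.41, 2.28 and 5.74 CPM and then 10.9, 11.9 and 7.68 CPM (1.41 ± 0.44, edgeR, adjusted p = 0.122). PCDH19 had 32.4, 51.2 and 27.6 CPM and then 209, 269 and 34.8 CPM (1.96 ± 0.70, edgeR, adjusted p = 0.136), so that library 3 of E70 lay within the range of E60. PCDH9 (241, 205 and 235 CPM, then 146, 184 and 295 CPM) and CDH2 (432, 654 and 469 CPM, then 421, 386 and 404 CPM) had log2 differences of -0.30 ± 0.35 (edgeR, adjusted p = 0.562) and -0.58 ± 0.34 (edgeR, adjusted p = 0.270).

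DESeq2 called 7 members, CDH17, PCDH19, PCDHA1 and PCDHB2 higher and CDH5, PCDH12 and PCDH18 lower, beside 17.0% of genes. Without E60 library 3, edgeR called 12 of 32 members, against 34.7% of genes (5902). Without E70 library 3 it called 7 of 32, against 9.23% (1570). In the pool of E60_3 and E70_3, which were sequenced together, 1 of 32 members differed by at least 2-fold (CDH9, log2 difference of 1.65), against 5.60% of genes, and in the pool of E60_1 and E70_1, 17 of 32 did, against 50.8%. The sign was the same in both pools for 15 of the 32 and for 49.9% of genes.

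Of the partners of cadherins, the 10 catenins and tail partners had 0 called genes, 5 with an unadjusted p under 0.05 and a median log2 difference of -0.77. Of 25 other genes of the cadherin superfamily (such as the FAT, CELSR and calsyntenin genes) 22 were tested, with 0 called, 6 under an unadjusted p of 0.05 and a median of 0.65. Of 9 genes of cadherin cleavage and protocadherin signalling 8 were tested, with 0 called and a median of -0.04.

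Within classes, E60 and E70 could be compared in microglia-like and erythroid-like cells and, added later, in cluster 8. In microglia-like cells edgeR called 0 of 24 members and 0 of 12626 genes (0% called, with 9 members and 1384 genes under an unadjusted p of 0.05). PCDH9 had 99.0, 180 and 103 CPM in the E60 libraries and 24.6 and 12.8 CPM in E70_1 and E70_3, a log2 difference of -2.97 ± 0.61 (edgeR, adjusted p = 0.358). DESeq2 called CDH10, CDH11, CDH2, PCDH17 and PCDH9 lower, beside 2.70% of genes. Of the 24 members 13 had a higher estimate at E70 and, without the 20 cells of E70_1, 1 had: PCDH19 went from a log2 difference of 2.66 to -1.15 and CDH18 from 1.79 to -0.93, while PCDH9 stayed lower at -3.35. The astrocyte and radial glia markers summed in these cells to 1440, 1580 and 477 CPM at E60, to 162 CPM in E70_1 (7 of 10 markers had a UMI, with GJA1, SOX2 and SOX9 at 0) and to 171 CPM in E70_3 (10 of 10), and their part in the result was not tested.

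In erythroid-like cells edgeR called 1 of 2381 genes (0.0420%) and 0 of 7 members. CDH13 had 19.7, 16.6 and 13.0 CPM at E60 and 1850, 2400 and 10.3 CPM at E70, a log2 difference of 6.23 ± 1.55 (edgeR, adjusted p = 0.0673) that came from E70_1 and E70_2. DESeq2 called CDH13 and CDH18 higher and CDH10, CDH2 and PCDH9 lower there, beside 20.5% of genes. In cluster 8 edgeR called 0 of 21 members and 0 of 10142 genes (0%, with 1 member and 803 genes under an unadjusted p of 0.05), and DESeq2 called 0 members beside 1.74% of genes.

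The E60 libraries that differ were described by a rule with no test, in which both E60_1 and E60_2 had to lie at least 2-fold on the same side of E60_3. Over all cells CDH6, PCDH12 and PCDH18 were higher in libraries 1 and 2, 3 of 32 members against 6.04% of genes, and CDH1, CDH12, CDH17, CDH19, CDH4 and PCDH8 were lower, 6 of 32 against 21.9%. In astrocyte and radial glia-like cells CDH11, PCDH18, PCDH20 and PCDH9 were higher (4 of 30, against 6.42%) and CDH1, CDH19, CDH4, CDH5, PCDH1 and PCDH8 lower (6 of 30, against 16.9%). Both lower shares were near those of all genes.

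CDH4 had 8.40, 5.03 and 22.6 CPM over all cells of E60_1, E60_2 and E60_3 and 5.73, 4.42 and 44.3 CPM in their astrocyte and radial glia-like cells. It was on the same side in microglia-like cells (2.69, 4.66 and 11.5 CPM) and endothelial-like cells (2.84, 3.96 and 8.43 CPM). E50_1 and E70_3 had 16.0 and 35.5 CPM of CDH4 in astrocyte and radial glia-like cells. E60_1 and E60_2 were thus the lowest of the 5 fetal whole cell libraries with this class.

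PCDH8 had 16.0, 17.7 and 75.6 CPM in the astrocyte and radial glia-like cells of E60_1, E60_2 and E60_3, with 74.4 CPM in E50_1 and 92.9 CPM in E70_3. PCDH9 went the other way, with 458, 423 and 172 CPM, and 227 and 222 CPM in E50_1 and E70_3, and CDH11 had 146, 93.8 and 42.0 CPM, and 67.0 and 51.6 CPM. For these 3 genes E60_3 lay nearer to E50_1 and E70_3 than to the libraries of its own stage. Of the 175 such cells of E60_3, 139 were in 1 cluster, so that the cluster and the library cannot be told apart.

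In microglia-like cells CDH20, CDH6, PCDH12, PCDH17 and PCDH18 were higher in libraries 1 and 2 (5 of 26, against 7.86%) and CDH4, CDH9, PCDH8 and PCDHB15 lower (4 of 26, against 17.4%). In endothelial-like cells 0 of 29 members were higher (against 7.32%) and CDH12, CDH17, CDH4 and CDH9 were lower (4 of 29, against 16.5%). The vessel members CDH5, PCDH12, CDH6 and PCDH18 were within 2-fold there, as CDH5 had 165, 212 and 303 CPM and PCDH18 had 70.4, 44.0 and 72.7 CPM. In fibroblast-like cells CDH20 and CDH6 were higher (2 of 19, against 5.61%) and PCDH15 was lower (1 of 19, against 7.42%). CDH20 had 119, 70.6 and 28.6 CPM there and CDH6 32.4, 38.0 and 12.8 CPM. In erythroid-like cells 12 of 16 members were higher, against 71.6% of genes, and 0 were lower, against 1.54%, so that the members moved as most genes did. With TMM factors the counts were 5 higher (33.9% of genes) and 1 lower (PCDH19, 9.75%). CDH20 had 56.4, 62.4 and 1.00 CPM and CDH8 62.1, 19.6 and 2.00 CPM in these cells. Of 22 other genes of the cadherin superfamily 10 were lower over all cells and 0 higher, with a median log2 difference of -1.16, against -0.31 over all genes and 0.06 over the members.

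Nuclei and whole cells of E70 differed in several members, in neuron classes and also in cluster 8, each with 1 library of nuclei and therefore no test. In excitatory-like cells CDH10, CDH11, CDH13, CDH8, CDH9, PCDH10, PCDH15 and PCDH9 lay at least 2-fold above all 3 whole cell libraries, 8 of 29 members against 9.52% of genes, and PCDHB2 lay below, 1 of 29 against 18.7%. In interneuron-like cells CDH10, CDH11, CDH12, CDH7, CDH8, CDH9 and PCDH9 were higher (7 of 25, against 7.71%) and PCDHB2 was lower (1 of 25, against 18.3%). Over all cells the counts were 8 of 32 (10.6%) and 4 of 32 (21.4%), and in cluster 8 they were 9 of 26 (14.3%) and 2 of 26 (18.2%).

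CDH9 had 11.3, 14.0 and 76.0 CPM in the excitatory-like whole cells of E70 libraries 1 to 3 and 328 CPM (95% CI 304 to 353) in the nuclei. CDH10 had 70.2, 73.2 and 104 CPM and then 617 CPM (585 to 651), and CDH11 had 78.0, 95.0 and 123 CPM and then 565 CPM (534 to 597). PCDH9 had 222, 240 and 370 CPM and then 1400 CPM. In interneuron-like cells CDH9 had 98.6, 95.7 and 90.1 CPM and then 869 CPM (791 to 954). The intervals cover counting error in 1 library, and 279 of the 484 excitatory-like nuclei were in cluster 27, where CDH9 was a leading gene.

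CDH2 (503, 452 and 375 CPM, then 778 CPM) and PCDH17 (58.1, 14.8 and 106 CPM, then 76.0 CPM) did not meet the rule in excitatory-like cells. Introns were counted, so the difference was set beside the length of the gene. Across members with a RefSeq entry the correlation of the log2 difference with gene length was 0.584 (Pearson, on log10 length) and 0.611 (Spearman) over all cells (28 genes), 0.309 and 0.423 in excitatory-like (25 genes) and 0.429 and 0.429 in interneuron-like cells (22 genes). The genes share their libraries, and the values are a description. The median length of the higher members and of the rest was 452 and 101 kb in excitatory-like cells, 208 and 89.1 kb over all cells and 183 and 101 kb in interneuron-like cells.

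**Figure D4:**
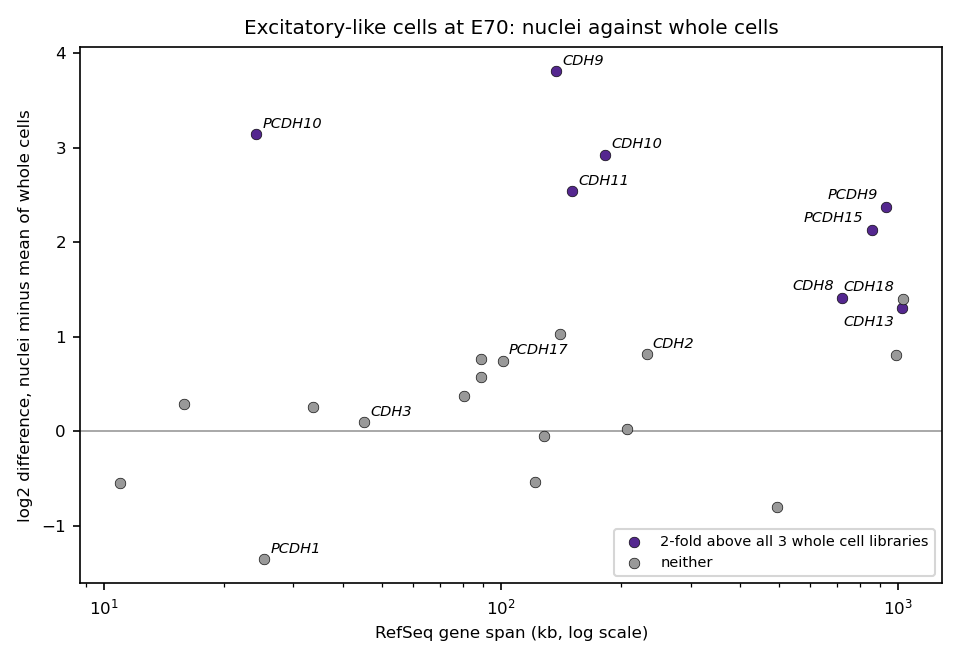
Log2 difference between the E70 nuclei and the mean of the 3 E70 whole cell libraries in excitatory-like cells (vertical axis) against the RefSeq gene length in kb (horizontal log axis), 1 point per member. Purple points lie at least 2-fold above all 3 whole cell libraries. They run from PCDH10 (24.2 kb) to CDH13 (1020 kb), while CDH18 and CDH12, at 1030 and 990 kb, are not among them.

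The adult whole cells were compared with fetal whole cells within a class, again with 1 library and no test. In endothelial-like cells CDH11, CDH2, CDH6, PCDH1, PCDH12, PCDH17 and PCDH18 lay at least 2-fold below every fetal library, 7 of 30 members against 4.36% of genes, and CDH13 and CDH3 lay above, 2 of 30 against 8.52%. In mural-like cells CDH11, CDH18, PCDH12, PCDH17, PCDH18 and PCDH9 were lower (6 of 21, against 14.0%) and CDH1, CDH13 and CDH3 higher (3 of 21, against 11.8%). CDH5 did not meet the rule in either direction in endothelial-like cells. Of the 80 adult endothelial-like cells 68 were in cluster 7, which held 50.8% to 63.7% of those of the 5 fetal libraries, and within it CDH11, CDH2, CDH6, PCDH1, PCDH12 and PCDH17 were lower (6 of 29, against 4.15%) and CDH1 and CDH3 higher (2 of 29, against 7.28%). All mural-like cells were in 1 cluster. Over all cells Adult_1 had 180 CPM of CDH3, against 35.2 to 91.8 CPM in E50_1, the E60 libraries and E70_3. It had 37.2 CPM of CDH1, against 4.57 to 19.6 CPM in them, and 70.6 CPM of CDH13, against 44.0 to 115 CPM. E70_1 and E70_2 had 199 and 219 CPM of CDH3, 37.2 and 34.2 CPM of CDH1 and 240 and 245 CPM of CDH13. These 2 fetal libraries thus lay near or above Adult_1, and they had too few cells of either class to enter the comparison. The part of the library in the higher values of these classes was not tested.

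PCDH18 had 44.0 to 74.6 CPM in the 5 fetal endothelial-like libraries, with the median at 70.4 CPM, and 8.18 CPM (95% CI 4.36 to 14.0) in the adult. CDH6 had 66.5 to 113 CPM and 8.18 CPM (4.36 to 14.0), PCDH12 69.7 to 94.9 CPM and 18.3 CPM (12.2 to 26.2), and PCDH17 46.2 to 137 CPM and 5.66 CPM (2.59 to 10.8). CDH2 had 515 to 1060 CPM and 157 CPM (138 to 177), CDH11 193 to 353 CPM and 40.9 CPM (31.6 to 52.1), and PCDH1 37.8 to 51.0 CPM and 15.1 CPM (9.68 to 22.5). PCDH18 no longer met the rule within cluster 7, with 4.76 to 9.62 CPM in the fetal libraries and 2.47 CPM (3 UMIs) in the adult. Cluster 22, with 136 CPM of PCDH18 over all libraries, held 11 adult cells. None of the adult intervals over the whole class reached the fetal range, while the adult 164 CPM of CDH5 lay beside the lowest fetal value of 165 CPM.

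In mural-like cells PCDH18 had 274, 380 and 354 CPM in E50_1, E60_1 and E60_2 and 5.84 CPM in the adult, from 2 UMIs (95% CI 0.708 to 21.1). PCDH12 had 29.7, 13.6 and 29.8 CPM and 0 UMIs in the adult, where 3 counts would have made 8.76 CPM. CDH13 had 9.89, 68.0 and 80.4 CPM and then 248 CPM (198 to 307), and CDH3 had 132, 56.4 and 84.9 CPM and then 327 CPM (269 to 394). CDH6 was at 76.0 CPM in the adult, within its fetal range of 59.3 to 111 CPM, unlike in endothelial-like cells. A test of that difference between classes was not possible with 1 adult library.

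Other cell types moved beside these values. In endothelial-like cells the mural markers summed to 780 CPM in the adult and 555 to 882 CPM in the fetal libraries, the endothelial markers to 2350 CPM against 2750 to 3520 CPM, the astrocyte and radial glia markers to 938 CPM against 1680 to 2400 CPM, and the erythroid markers to 4500 CPM against 5000 to 15100 CPM. In mural-like cells the mural markers summed to 13200 CPM in the adult and 5040 to 5880 CPM in the fetal libraries, the endothelial markers to 292 CPM against 186 to 320 CPM and the astrocyte and radial glia markers to 3110 CPM against 3420 to 5580 CPM. Their part in the result was not tested. The adult library was sequenced with E60_2.

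**Figure D5:**
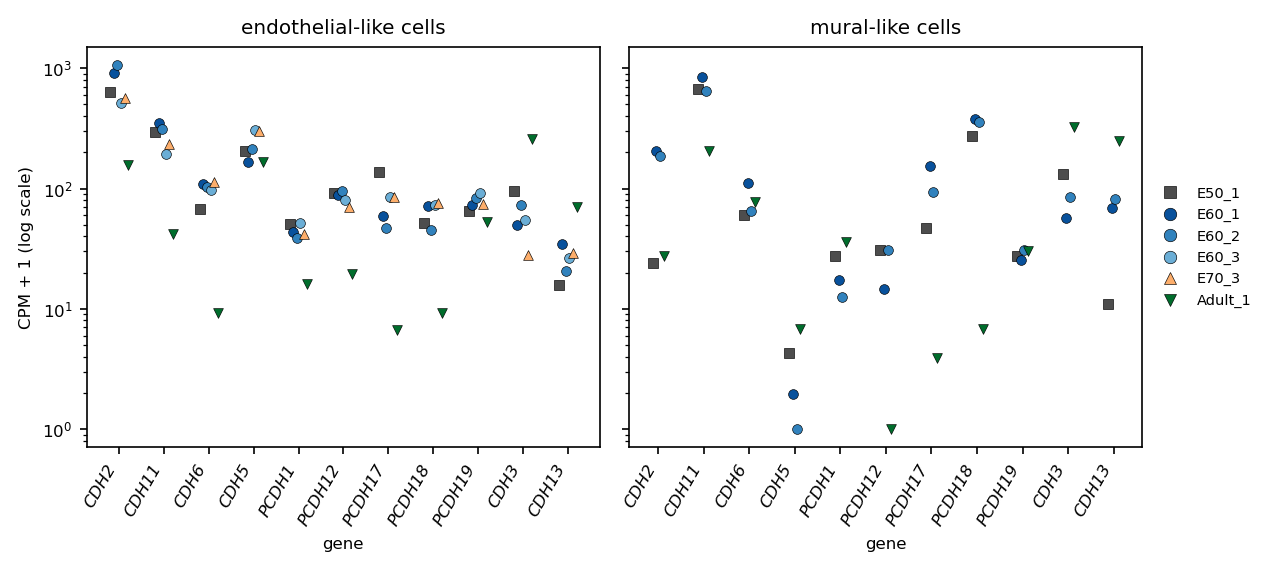
CPM + 1 on a log axis of 11 members in endothelial-like and mural-like cells, 1 point per whole cell library with at least 20 cells of the class, with the adult library marked apart from the fetal ones. The adult point lies below all fetal points for PCDH18, PCDH12, PCDH17 and CDH11 in both classes and above them for CDH3 and CDH13.

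In microglia-like cells CDH1 and CDH5 were higher in the adult (2 of 28, against 3.21% of genes) and PCDH17 lower (1 of 28, against 1.86%). CDH1 had 10.9 CPM in E50_1, 7.22, 10.0 and 9.23 CPM in the E60 libraries, 28.1 CPM in E70_1 and 8.83 CPM in E70_3, and 80.5 CPM (95% CI 66.7 to 96.5) in the adult whole cells. The adult nuclei had 68.0 CPM of CDH1 from 14 UMIs, so that both adult libraries lay above the fetal ones. Of the 230 adult cells 207 were in cluster 18, which held 61 of the 126 such cells of E50_1, 204 of 1152, 72 of 479 and 14 of 140 of those of the E60 libraries and 5 of 100 of those of E70_3. Within cluster 18, looked at after the values were seen, 10 of 15 members were higher, against 22.5%, and 0 were lower, against 4.49%. The higher ones were CDH1 (80.2 CPM against 11.0 to 14.9 CPM in 3 fetal libraries), CDH10, CDH12, CDH13, CDH18, CDH2, CDH20, CDH7, PCDH15 and PCDH19. Of these 10 only CDH1 met the rule in the whole class. A member could reach 20 UMIs in this cluster through the adult cells where it was high, so the count is no evidence of a broad adult rise. CDH5 and PCDH17 had fewer than 20 UMIs there. The endothelial markers summed to 188 CPM in the adult microglia-like cells and 50.5 to 225 CPM in the fetal ones. The part of the cluster or of these markers in the result was not tested.

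In astrocyte and radial glia-like cells CDH2 and PCDH8 were lower in the adult (2 of 31, against 6.97%) and CDH19, CDH5, PCDH1, PCDH12, PCDHA1 and PCDHB2 higher (6 of 31, against 14.7%). CDH2 had 381 to 539 CPM in the 5 fetal libraries and 138 CPM (95% CI 109 to 173) in the adult. PCDH8 had 16.0 to 92.9 CPM and 3.59 CPM, from 2 UMIs (0.434 to 13.0). The higher members were at low counts in the 58 adult cells, with 7 UMIs of CDH19, 3 of PCDHA1 and 1 of PCDH12. All 58 were in cluster 3, which held 886 of 2266 such cells in E60_1, 208 of 1119 in E60_2, 14 of 175 in E60_3, 115 of 789 in E50_1 and 42 of 195 in E70_3. Within cluster 3 CDH6 and PCDH8 were lower (2 of 25, against 8.0% of genes) and CDH1, PCDH1 and PCDHB2 higher (3 of 25, against 14.7%), while CDH2 had 251 to 516 CPM in 4 fetal libraries and 138 CPM in the adult, which did not meet the rule. The endothelial markers summed to 136 CPM in the adult cells of the class and 24.3 to 71.8 CPM in the fetal whole cells, and the microglia markers to 231 CPM against 34.5 to 98.5 CPM. Their part in the result was not tested. In erythroid-like cells, of which the adult library held 30, CDH2 was lower (1 of 17, against 1.69%) and 0 members were higher (against 2.15%). CDH2 had 0 UMIs there and 10.3 to 128 CPM in the 7 fetal libraries.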

How the data were processed

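The expression of cadherins and protocadherins was analysed in single cells and nuclei of the pig medial entorhinal cortex. The authors captured them with the 10X Genomics 3' kit, counted unique molecular identifiers (UMIs) with Cell Ranger, given as version 2.20 in the submitters' processing notes, mapped reads to pre-mRNA of Sscrofa11.1 with Ensembl genes so that introns counted, and deposited 1 table of raw UMI counts per library. Cell Ranger's default cut was the authors' filter on cells, and none was added here. The files held 28229 cells and 22452 genes.

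Each cell was brought to a sum of 10000 UMIs on a log scale, and 3000 variable genes, 50 principal components, the steps of FastMNN with 20 neighbours and Louvain clustering at resolution 1.6 gave 50 clusters (Python 3.11.15, scikit-learn 1.9.0, igraph 0.11.9). The members, related genes and markers (231 genes) were kept out of the variable genes. A cluster was named, with the ending "-like", from at least 3 detected markers of a type and stayed unnamed where its leading genes went against the name. Names rebuilt in this way can differ from those of the study. Doublets were called with Scrublet (scanpy 1.11.5) as the top scores up to 0.8% per 1000 cells of a library, since its automatic threshold called 183 cells. The 1077 called cells (3.82%) were kept, and an alternative left them out.

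Levels are CPM (the UMIs of a gene over all UMIs, scaled to 1000000), summed over the cells of a class or of a class in a library with at least 20 cells. Intervals are exact Poisson or Clopper-Pearson 95% confidence intervals, and they and the floor of 3 counts cover counting error only.

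E70 and E60 whole cells (3 libraries each) were compared on summed counts with edgeR 4.0.16 (R 4.3.3), using TMM factors, filterByExpr, the quasi-likelihood test and Benjamini-Hochberg adjustment over all genes tested, with an adjusted p under 0.05 as the threshold. DESeq2 1.42.0, no TMM, no filter, each library left out, a replicate block, clusters made in each library alone and the sums without called doublets were the alternatives. No source says that libraries of a stage came from separate litters, so p-values measure the spread between these libraries. The test was checked on simulated counts with known changes in 200 genes. It called almost none of them at the spread of these libraries and this number of changed genes. Over all cells the deviations of same-numbered E60 and E70 libraries from their stage means had correlations of -0.172, 0.0282 and -0.129. Libraries numbered 1, and those numbered 3, shared a sequencing pool across the stages. With 3 libraries a stage these correlations cannot show that a pairing is absent, and the main test used none.

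Comparisons with 1 library on a side, and E60 libraries 1 and 2 against library 3, have no test. There a gene counted as higher or lower where it lay at least 2-fold outside the libraries it was compared with (on CPM from counts plus 0.5), among genes with at least 20 UMIs. The genes named were every member called in a test, up to 3 members per class by the ratio of the class CPM to the median of the other named classes (at least 10 CPM and 50 UMIs), up to 8 members in each direction between the E60 libraries, and a list given by symbol. Other members named were chosen after their values were seen. The members, lists and tests were chosen with earlier results of these data known.

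Gene positions and promoter sequences come from RefSeq on the same build, Sscrofa11.1. Of the rows of the files, 6470 carried an Ensembl identifier in place of a symbol, of which 1012 were named by a gene name table. The promoter sequences of other members are not reported here. Genes of the family whose symbol was found in neither were not analysed here.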

Additional observations from a re-analysis of the deposited data

How the results depend on the processing

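Between E70 and E60 over all cells, DESeq2 called 2833 genes and 7 members where edgeR called 0 of each. Leaving out 1 library in turn gave 0 to 5902 genes and 0 to 12 members, the highest without E60 library 3 (34.7% of genes). In microglia-like cells DESeq2 called 308 genes and 5 members, and leaving out a library gave 0 to 168 genes and 0 to 2 members. In erythroid-like cells DESeq2 called 364 genes and 5 members, no TMM factors gave 126 and 1, no filter on low counts gave 826 and 4, classes made in each library alone gave 0 genes, and leaving out a library gave 0 to 1178 genes and 0 to 5 members. In cluster 8 DESeq2 called 118 genes, and leaving out a library gave 0 to 956 genes and 0 to 3 members. The replicate block called 0 genes over all cells, 3 genes in microglia-like and 7 genes in erythroid-like cells. A pairing by replicate number was not established, so the block is given once here. The log2 differences over all cells ranged, with a library left out, from 2.58 to 3.53 for PCDHA1, -2.38 to -1.72 for PCDH18, -2.21 to -1.01 for CDH5, -2.79 to -1.40 for PCDH12, 1.22 to 1.80 for CDH17 and 1.38 to 2.49 for PCDH19. The cause of these shifts was not tested.

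None of these 6 turned, but in microglia-like cells leaving out E70 library 1 turned PCDH19 to -1.15 and CDH18 to -0.93 on the log2 scale.

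A 4-fold limit in place of 2-fold left, between the E60 libraries (members higher and lower, with the share of all genes), 0 (1.06%) and 2 (5.41%) over all cells, 1 (1.43%) and 3 (3.94%) in astrocyte and radial glia-like, 1 (1.36%) and 0 (3.25%) in microglia-like, 0 (0.966%) and 0 (3.00%) in endothelial-like, and 0 (0.342%) and 0 (1.08%) in fibroblast-like cells. With at least 100 UMIs per gene 3 (10.4%), 1 (12.9%), 1 (10.2%) and 0 (7.91%) members were lower in these 4 classes, 0 (4.01%) were higher in fibroblast-like cells and 7 (76.7%) in erythroid-like cells. With TMM factors 8 (10.4%) were higher in astrocyte and radial glia-like cells, 0 (9.0%) lower in microglia-like cells, 1 (11.5%) higher and 2 (12.1%) lower in endothelial-like cells, 2 (9.05%) lower in fibroblast-like cells, and 5 (33.9%) higher and 1 (9.75%) lower in erythroid-like cells. Between the E70 libraries the 4-fold limit left 4 (5.20%) higher and 0 (0.498%) lower over all cells, 3 (6.14%) and 2 (0.901%) in excitatory-like and 3 (5.12%) and 0 (0.732%) in IP-like cells. For nuclei it left 4 (1.63%) higher and 1 (12.1%) lower over all cells, 3 (1.23%) higher in excitatory-like, 2 (0.934%) higher in interneuron-like, and 1 (1.78%) higher and 0 (9.28%) lower in cluster 8. For the adult it left 0 (0.561%) and 0 (0.650%) in microglia-like, 1 (3.17%) and 0 (1.71%) in astrocyte and radial glia-like, 0 (1.62%) higher and 4 (1.10%) lower in endothelial-like, 1 (4.50%) higher in mural-like and 0 (0.288%) lower in erythroid-like cells. Within the cluster of most adult cells, an alternative added after the values were seen, 10 were higher and 0 lower in microglia-like, 3 higher in astrocyte and radial glia-like and 0 lower in erythroid-like cells. Fewer members pass a wider limit by construction. The nuclei and adult libraries had 1 library each, a median of 690 UMIs per cell limits the adult nuclei, and a test with at least 50 cells per library was possible only for cluster 8 (0 genes), while own clusters could not be fitted for microglia-like cells.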
